A study of Mus musculus with 25 samples.

Results

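Messenger RNA levels of WT31 and HCmel12, murine melanoma lines taken from each of the study's 2 groups, were compared gene by gene. All 10 libraries labelled with either line were used (5 of each), out of 25 libraries of 5 lines, and 15247 of the 55385 genes in the files had enough counts to be tested. WT31 derives from mice with the genotype Tyr::Nras Q61K; INK4a-/-, in which an activated Nras transgene is driven by the tyrosinase promoter and the cell cycle inhibitor locus INK4a is lost. HCmel12 derives from a primary melanoma of HGF-CDK4(R24C) mice, which carry a transgene for the growth factor HGF and a Cdk4 allele that is insensitive to INK4a proteins. The study counted WT31 among HIM-melanoma (high or intermediate metastatic, with B16F10 luc2 and RET) and HCmel12 among LM-melanoma (low metastatic, with D4M). Cells of both lines were untreated and were harvested at a confluency of 50% in RPMI with 10% FCS and penicillin/streptomycin, and the medium of HCmel12 also held Hepes, beta-mercaptoethanol, L-glutamine, pyruvate and non-essential amino acids. Each genotype is represented by 1 line and its own medium, so that genotype, line and medium cannot be told apart, and the p-values measure the spread between replicate cultures of a line.

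Melanocytes make melanin in melanosomes from tyrosine, with tyrosinase, TYRP1 and DCT as the enzymes, under the transcription factors MITF, SOX10 and PAX3. They arise from the neural crest, where Wnt, BMP, endothelin and KIT signalling guide their fate. Melanoma cells can keep this pigment programme or lose it in part, and they differ in their interferon response, which governs antigen presentation to T cells.

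Between 24748383 and 25843286 counts were assigned to genes in the WT31 libraries and between 24204392 and 24525649 in the HCmel12 libraries. Correlation of log2 CPM (counts scaled to 1000000 per library with TMM factors), across genes that are not independent replicates, was 0.9814 to 0.9872 within WT31, 0.9785 to 0.988 within HCmel12 and 0.8273 to 0.8453 between the lines. Of the 8 melanocyte markers fixed for the check of the label, all were detected in every library of both lines. Markers of other cell types were summed per group. Fibroblast, immune, keratinocyte and erythroid markers reached at most 12.5 CPM in any of the 10 libraries, with 8 of 10 immune and 7 of 8 keratinocyte markers at or under 3 counts in every library. Endothelial markers summed to 26.1 to 39.6 CPM in HCmel12, of which Kdr alone gave 25.3 to 38.9 CPM, and to 0.152 to 1.22 CPM in WT31, and smooth muscle markers to 10.2 to 19.2 and 0.76 to 2.17 CPM. Whether other cells had a part in any result was not tested. The 4 Schwann cell markers, which neural crest derivatives share, summed to 475 to 597 CPM in WT31 and 993 to 1260 CPM in HCmel12, with 3 of them at least 2-fold lower in WT31 and 1 higher. HCmel12 replicate 4 stood apart, with 15 genes at least 4-fold above every other HCmel12 library (at most 4 genes in any of the other 9 libraries), and the median of the interferon list lay 0.86 and that of the ATF4 list 0.68 log2 units above the other 4 HCmel12 libraries. In WT31 replicate 5 the median of the S phase and mitosis list lay 0.83 log2 units below the other 4 WT31 libraries. The interferon, ATF4 and pigment lists are given with and without the first of these libraries, and the S phase and mitosis list with and without each.

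In the comparison, 10732 of 15247 genes differed between WT31 and HCmel12 at an adjusted p under 0.05 in limma (70.4% of the genes tested). Of these, 5504 were higher in WT31 (36.1%) and 5228 were lower (34.3%). At least 2-fold differences were found for 4576 genes (30.0%), 2287 higher and 2289 lower, and at least 32-fold differences for 333 genes higher and 402 genes lower in WT31. For 8124 genes (53.3%) the 5 libraries of each line did not overlap. The median log2 fold change over all genes tested was 0.01. Of the called genes 51.3% were higher in WT31 with TMM scaling of the counts, and 63.2% with log2(TPM + 1), where the median of all genes lay at 0.11. A share of called members near 70.4% is therefore that of all genes, and the lists below are described by the split of their members and by their median. Axin2, Tcf7, Wif1, Slc24a5, Isg15, Ifit1, H2-K1, H2-D1, Gbp2, Pmel, Mc1r, Oca2, Fn1, Ccng1, Ldha, Pfkp, Phgdh, Ror1, Irf1 and Mki67 were named after their values were seen.

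**Figure D1:**
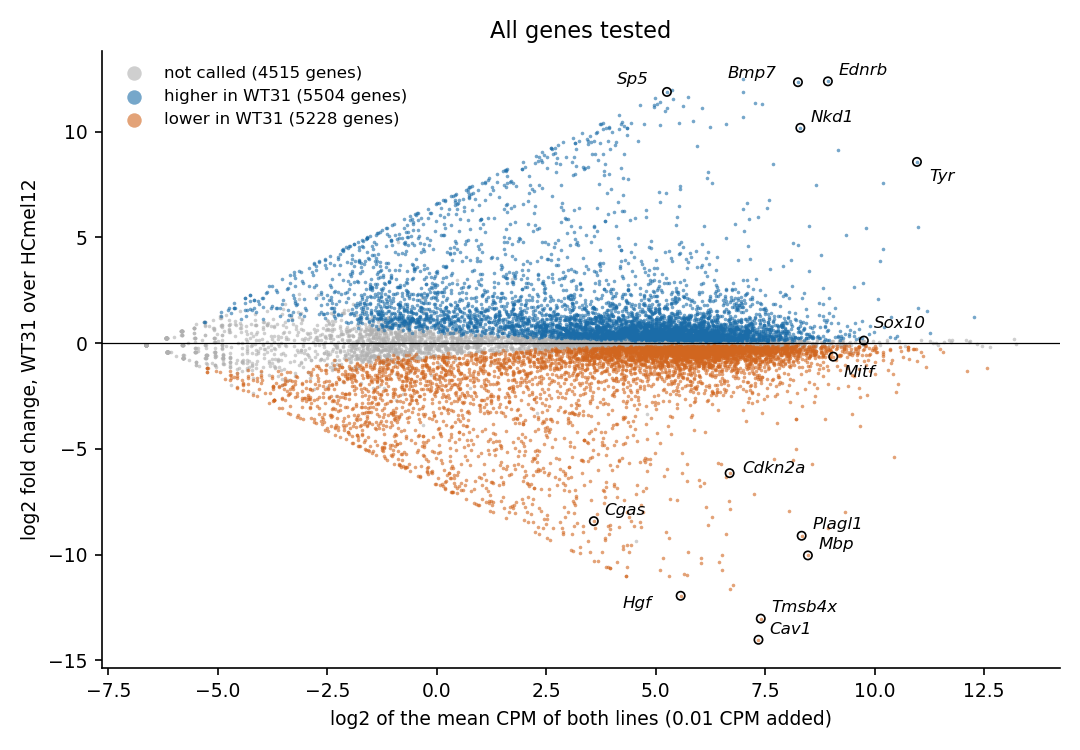
Log2 fold change of WT31 over HCmel12 against the mean level of both lines (log2 of CPM with 0.01 added) for the 15247 genes tested, with 5504 genes higher in WT31 in blue, 5228 lower in orange and 4515 not called in grey. Sox10 lies near 0, Tyr at 8.57 and Cav1 at -14.03, and the straight outer edges are genes with almost no counts in the other line.

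The genes with the largest differences were of many kinds. Among the 12 highest protein-coding genes in WT31 with at least 10 CPM in every library were Npy, a neuropeptide (log2 fold change 12.50), Ednrb, the endothelin B receptor of melanoblasts (12.38), Bmp7, a bone morphogenetic protein (12.34), Pthlh, the parathyroid hormone-like hormone (11.98), Sp5 and Apcdd1 of the Wnt pathway (11.88 each), 5430419D17Rik (11.63), Suclg2, a subunit of succinyl-CoA ligase (11.60), Vldlr, a lipoprotein receptor (11.56), Grb10, an imprinted adaptor of insulin signalling (11.36), and Crim1, a transmembrane regulator of BMPs (11.33). The 12 lowest were Cav1, the coat protein of caveolae (-14.03), Tmsb4x, the actin-binding thymosin beta 4 (-13.03), Hgf (-11.95), Fscn1, the actin bundler fascin (-11.43), Rgs2, a regulator of G protein signalling (-11.03), Scarf2 (-10.96), Cdh13, a cadherin held by a lipid anchor (-10.91), Cyba, a subunit of NADPH oxidase (-10.75), Chchd10 (-10.72), Alpl, an alkaline phosphatase (-10.61), Hoxd13 (-10.59) and Pcbd1 (-10.57). Cav1 was at 0 in all 5 WT31 libraries and at 276 to 479 CPM in HCmel12, which is at least 2849-fold lower in WT31 against a floor of 3 counts per library. Tmsb4x was at 0 to 0.228 CPM in WT31 and 216 to 392 CPM in HCmel12. Ednrb was at 779 to 1201 CPM in WT31 and 0.0803 to 0.408 CPM in HCmel12, and Bmp7 at 565 to 668 CPM against 0.0401 to 0.159 CPM. That the libraries of the lines do not overlap in these genes was a condition of their choice.

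A total of 180 genes were detected only in WT31 (at most 3 counts in every HCmel12 library and at least 1 CPM in every WT31 library), 155 of them protein-coding, and 152 only in HCmel12, 125 of them protein-coding. The order of these counts depends on the floor, with 106 and 78 genes at a floor of 1 count and 299 and 326 at a floor of 10 counts. Among the tested protein-coding genes in chromosome order, 6 runs of at least 4 consecutive genes differed 8-fold or more in the same direction. A run higher in WT31 on chromosome 17 (66666947 to 69289989 in GRCm38) held Ptprm, Lama1, Arhgap28 and Epb41l3, with a median log2 fold change of 8.67. A run lower in WT31 on chromosome 7 (31032722 to 31127003) held Fxyd5, Fxyd1, Lgi4, Fxyd3 and Hpn among its genes, regulators of ion transport among them (median -3.59), and another on chromosome 6 (124430759 to 124542359) held the complement genes C1rl, C1ra and C1s1 beside Clstn3 (-4.20). The other three were a Hoxd run, a run on chromosome 8 and the Y genes.

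The 3 enzymes of melanin synthesis were present in both lines at very different ratios. Tyr, tyrosinase, the rate-limiting enzyme (chromosome 7, 87424771 to 87493512, minus strand), was at 3541, 3821, 4318, 3739 and 4490 CPM in WT31 and at 8.59, 9.13, 8.32, 30.1 and 6.31 CPM in HCmel12. The groups did not overlap, and even the highest HCmel12 library, replicate 4, lay far below WT31 (log2 fold change 8.57 ± 0.23 SE, adjusted p = 6e-21). Tyrp1, which oxidizes a later intermediate, went the other way, with 2554 to 4733 CPM in WT31 and 7202 to 9717 CPM in HCmel12 (-1.18 ± 0.22, adjusted p = 3.8e-05). Dct, the tautomerase, was at 5855 to 8014 CPM in WT31 and 2348 to 5048 CPM in HCmel12 (1.24 ± 0.19, adjusted p = 2.4e-06). The other lines also differed in Tyr, with means of 1134 CPM in B16F10 luc2, 219 CPM in RET and 0.205 CPM in D4M.

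Promoter windows of 300 bases (250 before and 50 after the RefSeq start, GRCm38.p6, 5′ to 3′ on the gene's strand) are shown for Tyr and Tyrp1, whose levels went in opposite directions, and for Slc24a5, a melanosomal ion exchanger. Capitals mark CATGTG or its reverse complement CACATG, the core letters of the longer M-box bound by MITF. The letters beside the core were not searched. The motif was searched on both strands and is held by 15.9% of 27025 genes with a window and by 11 of 33 genes of the pigment list. A match is a description of the sequence and not a binding site. The windows of Tyr (chr7:87493463-87493762, minus strand), Tyrp1 (chr4:80833963-80834262, plus strand) and Slc24a5 (chr2:125067877-125068176, plus strand) each hold 1 match.
Tyr: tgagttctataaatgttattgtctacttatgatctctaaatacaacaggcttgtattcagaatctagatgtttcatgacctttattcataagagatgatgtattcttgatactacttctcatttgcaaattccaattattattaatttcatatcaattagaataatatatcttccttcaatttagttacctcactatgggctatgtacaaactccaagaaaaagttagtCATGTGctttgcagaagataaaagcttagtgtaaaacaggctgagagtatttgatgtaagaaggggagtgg
Tyrp1: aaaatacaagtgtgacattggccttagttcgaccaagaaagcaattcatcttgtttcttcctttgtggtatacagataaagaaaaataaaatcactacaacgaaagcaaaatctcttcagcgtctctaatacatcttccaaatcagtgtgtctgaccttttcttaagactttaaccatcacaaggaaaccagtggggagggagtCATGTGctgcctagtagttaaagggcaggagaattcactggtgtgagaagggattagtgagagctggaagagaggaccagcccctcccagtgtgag
Slc24a5: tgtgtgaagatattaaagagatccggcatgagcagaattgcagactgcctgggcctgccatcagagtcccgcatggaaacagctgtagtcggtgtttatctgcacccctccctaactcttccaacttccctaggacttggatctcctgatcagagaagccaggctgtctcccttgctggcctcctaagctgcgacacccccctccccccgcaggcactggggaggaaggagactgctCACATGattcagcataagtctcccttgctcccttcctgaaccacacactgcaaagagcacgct
The window of Tyrp1, which was lower in WT31, and those of Tyr and Slc24a5, which were higher, each hold the motif, on the reverse strand in Slc24a5, and the window of Dct holds 2 matches.

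Of the 40 members of the pigment list, 23 were higher and 8 lower in WT31, with a median log2 fold change of 0.38. With library sizes alone 5 were lower, and with log2(TPM + 1) 26 were higher and 3 lower. Every channel or transporter (7 of 7) and every receptor (4 of 4) of the list was higher in WT31, whereas the 18 genes of melanosome biogenesis were split into 6 higher, 6 lower and 6 not called. Trpm1, the melanocyte cation channel melastatin, was at 1649 to 3246 CPM in WT31 and 62.4 to 207 CPM in HCmel12 (4.46 ± 0.24, adjusted p = 6.3e-15). Slc7a11, the cystine transporter that supplies pheomelanin and glutathione, was at 181 to 348 CPM in WT31 and 1.61 to 9.61 CPM in HCmel12 (6.35 ± 0.43, adjusted p = 8.9e-13). Slc24a5 was at 1203 to 2012 against 174 to 278 CPM (log2 fold change 2.86), Oca2, which sets melanosomal pH, at 94.7 to 149 against 6.22 to 14.2 CPM (3.60) and Mc1r, the receptor of melanocortin, at 345 to 740 against 60.4 to 92.4 CPM (2.71). Mlana, a melanosomal antigen, was at 1479 to 2541 against 113 to 173 CPM (3.86) and Pmel, the fibril protein, at 1178 to 2517 against 571 to 1160 CPM (1.24). HCmel12 replicate 4 was the highest of the 5 HCmel12 libraries for each of these 10 pigment genes, and without it 23 members of the list were higher and 5 lower.

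Sox10 and Pax3, regulators above these genes, were not called. Sox10 was at 802 to 981 CPM in WT31 and 769 to 908 CPM in HCmel12 (log2 fold change 0.12 ± 0.11, adjusted p = 0.35) and Pax3 at 200 to 239 against 194 to 243 CPM (0.01 ± 0.06, adjusted p = 0.84). Mitf, the master regulator of the lineage, was lower in WT31, at 325 to 524 CPM against 512 to 781 CPM (-0.64 ± 0.13, adjusted p = 7.5e-05), with 1 WT31 library above the lowest HCmel12 library. Of the 21 regulators tested, 8 were higher and 9 lower in WT31 (median 0.06), and 11 were higher and 7 lower with log2(TPM + 1). Lef1, a nuclear partner of beta-catenin that acts with MITF on the Dct promoter, was at 86.2 to 112 CPM in WT31 and 3.3 to 5.62 CPM in HCmel12 (4.55). Tfap2b, a factor of the AP-2 family, was at 0.0369 to 0.155 CPM in WT31 and 88.2 to 164 CPM in HCmel12 (-10.15).

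KIT, the receptor of stem cell factor, was higher in WT31 and its ligand was lower. Kit was at 440 to 701 CPM in WT31 and 90.1 to 138 CPM in HCmel12 (2.14 ± 0.11, adjusted p = 3.8e-15), whereas Kitl was at 0.19 to 0.417 CPM in WT31 and 28.8 to 37.5 CPM in HCmel12 (-6.64 ± 0.25, adjusted p = 4.4e-18). In the list of neural crest and dedifferentiation genes 26 of 41 tested members were higher in WT31 and 10 lower (median 0.80), and of its receptors 10 of 14 were higher. Gfra1, a receptor of GDNF, was at 332 to 385 against 3.51 to 5.02 CPM (6.40), and Ror2, a receptor of WNT5A, at 86.8 to 118 CPM in WT31 and at most 0.12 CPM in HCmel12 (at least 807-fold higher). Its relative Ror1 was also higher, with means of 19.9 and 1.85 CPM (3.51). Sox2, a factor of stem cells and neural precursors, was at 9.15 to 15.6 CPM in WT31 and at most 0.121 CPM in HCmel12 (at least 87.2-fold higher). S100b, a calcium-binding protein used as a melanoma marker, was at 75.4 to 110 against 0.243 to 1.62 CPM (7.31). Ddr2, a collagen receptor kinase, went the other way, with means of 2.48 and 93.7 CPM (-5.22), as did Smad3 (43.5 and 112 CPM, -1.36).

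Myelin genes, which Schwann cells share with melanocytes through their common origin, included some with large differences, and of the 4 Schwann cell markers 3 were lower in WT31 and 1 higher. Mbp, myelin basic protein, was at 0.418 to 1.07 CPM in WT31 and 614 to 806 CPM in HCmel12 (-10.04), and Pmp22 at 0.554 to 2.69 against 85.5 to 107 CPM (-6.13). Mbp was also abundant in RET, with a mean of 1479 CPM, and low in B16F10 luc2 (0.825 CPM) and D4M (0.908 CPM).

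**Figure D2:**
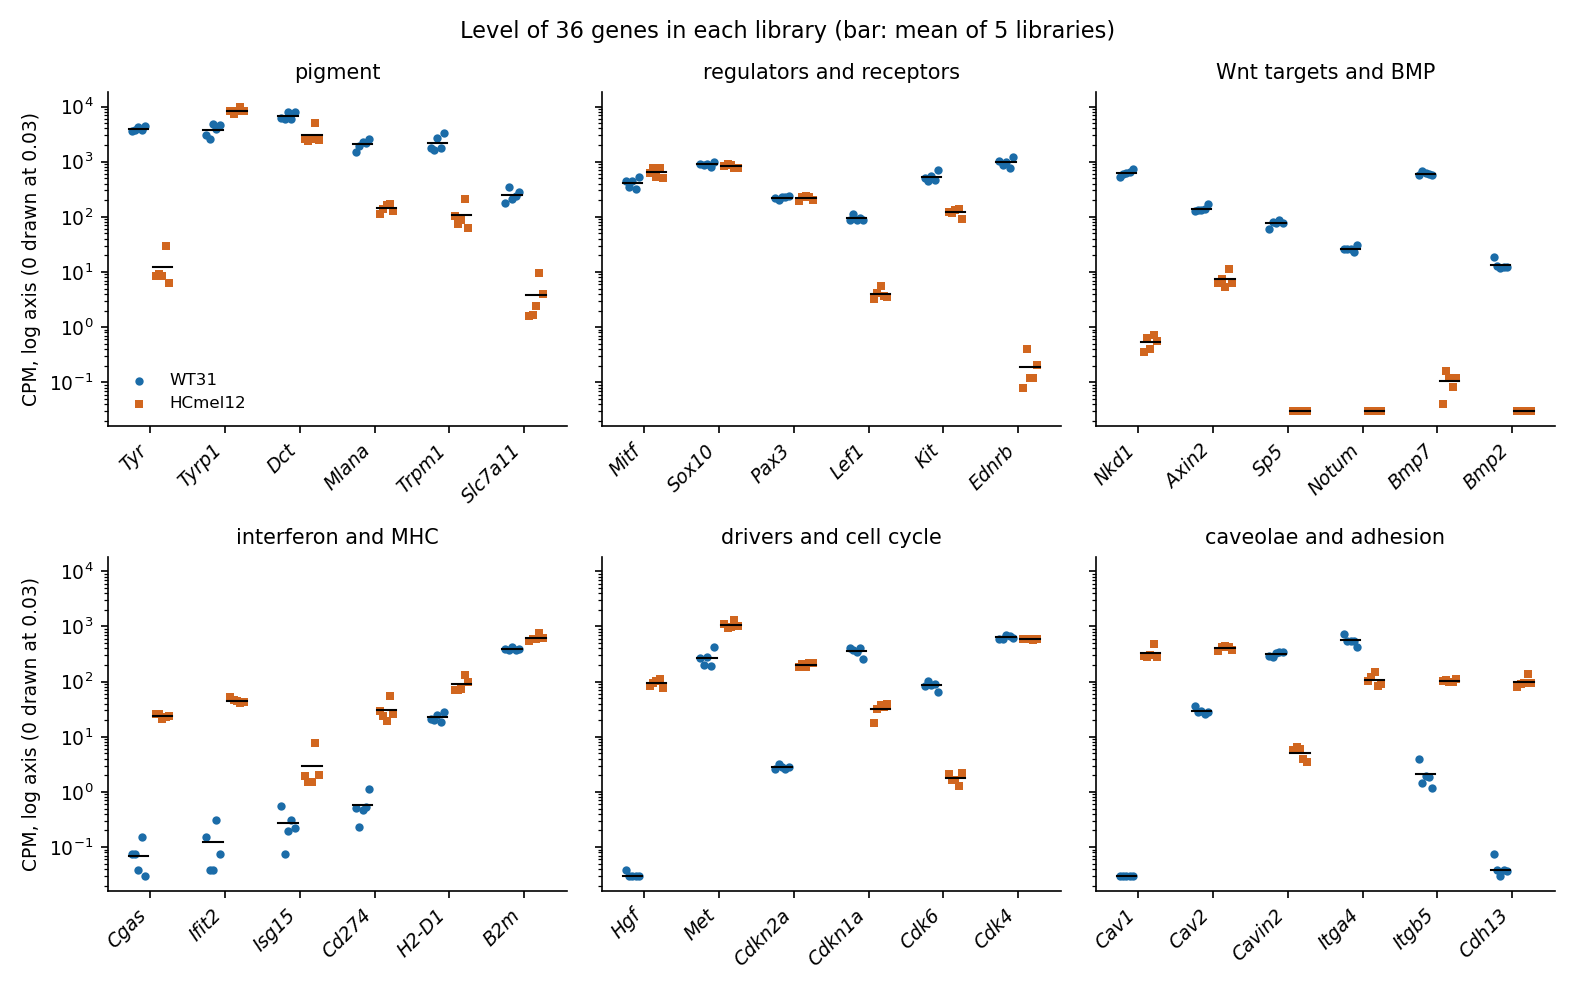
CPM (log axis, 0 drawn at 0.03) of 36 genes in each of the 5 WT31 libraries (blue circles) and the 5 HCmel12 libraries (orange squares), with a bar at the mean of each line. Sox10, Pax3 and Cdk4 overlap between the lines, while Ednrb, Sp5, Bmp7, Hgf and Cav1 are separated by several orders of magnitude, and HCmel12 replicate 4, the fourth square from the left, is the highest square for Tyr, Isg15 and Cd274.

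Among the genes altered in the mice of origin, Hgf and Cdkn2a were much lower in WT31. Hgf, the ligand of MET and the transgene of the HCmel12 mice, was at 78 to 113 CPM in HCmel12 and at 0.038 CPM in 1 WT31 library and 0 in the other 4 (at least 831-fold lower in WT31). Hgf was also detected in 1 of the lines B16F10 luc2, RET and D4M and was at the floor in the other 2. Its receptor Met was at 190 to 416 CPM in WT31 and 943 to 1310 CPM in HCmel12 (-2.03 ± 0.14, adjusted p = 2e-12). Cdkn2a, the INK4a locus (chromosome 4, 89274471 to 89294653), was at 2.65 to 3.23 CPM in WT31 and 181 to 221 CPM in HCmel12 (-6.15 ± 0.12, adjusted p = 1.2e-23). Which of its exons the WT31 reads come from cannot be told from counts per gene, and the other lines had means of 0 CPM (B16F10 luc2 and RET) and 0.0614 CPM (D4M). Its neighbour Cdkn2b was higher in WT31 (32.8 to 56.1 against 9.07 to 16 CPM, 1.88). Nras, whose Q61K form is the WT31 transgene, was at 146 to 192 against 132 to 161 CPM (0.18 ± 0.06, adjusted p = 0.0088), and counts per gene do not separate alleles. The paper describes the NRAS mutation of WT31 as human, and whether reads of a human sequence were counted under mouse Nras was not tested. Cdk4 was at 591 to 688 against 579 to 602 CPM (0.10 ± 0.05, adjusted p = 0.051).

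Other genes of the G1 phase differed more than Cdk4. Cdk6, its paralog, which also binds D-type cyclins, was at 66 to 104 CPM in WT31 and 1.29 to 2.21 CPM in HCmel12 (5.57), and Ccnd1, cyclin D1, at 1509 to 1959 against 254 to 595 CPM (2.09). Cdkn1a, the inhibitor p21, was at 262 to 412 against 17.6 to 39.9 CPM (3.52), and Myc was lower in WT31 (79.9 to 121 against 191 to 377 CPM, -1.33). Braf was lower in WT31 (21.2 to 28.3 against 63.8 to 74.8 CPM, -1.51). Trp53 was at 185 to 225 against 184 to 247 CPM (-0.15, adjusted p = 0.051). Of 35 targets of p53, 21 were higher in WT31 and 7 lower (median 0.41), among them Eda2r, a death receptor (12.3 to 29.2 CPM against at most 0.0814 CPM, at least 182-fold higher), Ccng1, cyclin G1 (188 to 345 against 31 to 35.2 CPM, 3.04), and Gadd45a, which is induced by DNA damage (23 to 50.1 against 2.16 to 3.28 CPM, 3.78). Pmaip1, the death-promoting NOXA, was the strongest exception (at most 0.0425 against 7.09 to 8.75 CPM, at least 70.5-fold lower). Of the 16 targets that differed at least 2-fold, all 3 other lines lay nearer to WT31 in 10 and nearer to HCmel12 in 0.

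Output genes of the ERK cascade were split, with 16 of 36 higher and 13 lower in WT31 (median 0.33). The immediate early genes Egr1 (2.27 to 5.13 against 18.8 to 154 CPM, -4.32) and Fos (1.63 to 3.25 against 25.3 to 46.6 CPM, -3.82) were lower. The ETS factor Etv1 (124 to 160 against 24.6 to 27.7 CPM, 2.39), the feedback inhibitor Spry4 (88.8 to 230 against 28.2 to 44.7 CPM, 2.04) and the phosphatase Dusp4 (means of 340 and 147 CPM, 1.20) were higher. The phosphatase Dusp2 had means of 0.311 and 12.8 CPM (-5.44).

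The Wnt pathway had the highest median of the lists with at least 10 members tested, 1.28, with 30 of 46 members higher and 11 lower in WT31. Of 10 extracellular and membrane inhibitors, Notum, Apcdd1, Wif1 and Dkk3 among them, 9 were higher. Of 12 effectors, in which Nkd1 and Axin2, targets of beta-catenin that dampen the pathway, were counted, 7 were higher and 3 lower. Nkd1, an antagonist of Dishevelled, was at 529, 589, 630, 663 and 740 CPM in WT31 and 0.361, 0.638, 0.405, 0.71 and 0.57 CPM in HCmel12 (10.18 ± 0.32, adjusted p = 1.5e-19). Axin2, a scaffold of the destruction complex, was at 125 to 171 against 5.27 to 11.3 CPM (4.30 ± 0.18, adjusted p = 7.1e-17). Notum, which removes the lipid of Wnt ligands, was at 22.8 to 31.3 CPM in WT31 and 0 in all HCmel12 libraries (at least 220-fold higher). Apcdd1, a membrane inhibitor, was at 198 to 307 against 0 to 0.162 CPM (11.88), Wif1, which binds Wnt ligands, at 37.8 to 116 against 0.203 to 0.649 CPM (7.16) and Dkk3 at 440 to 573 against 25.1 to 50.2 CPM (3.91). Every WT31 library lay above every HCmel12 library in these 6 genes. Over all genes tested, the libraries of the lines did not overlap, in either direction, for 53.3%.

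Other effectors act in the nucleus. Sp5, a zinc finger factor and direct target of the pathway (chromosome 2, 70474923 to 70477729, plus strand), was at 59.9 to 88.1 CPM in WT31 and 0 in all HCmel12 libraries (at least 631-fold higher). Tcf7, a DNA-binding partner of beta-catenin, was at 179 to 220 against 25.5 to 27.5 CPM (2.86). Ctnnb1, beta-catenin itself, was at 1109 to 1457 against 1148 to 1339 CPM (0.06 ± 0.05, adjusted p = 0.33). Among members lower in WT31 were the ligand Wnt6 (means of 0.294 and 9.43 CPM, -5.04), the R-spondin receptor Lgr6 (-5.71) and the secreted inhibitor Frzb (means of 1 and 9.54 CPM, -3.23). The other lines resembled HCmel12 in the strongest of these genes, with means of at most 0.127 CPM for Nkd1 and 0.00801 CPM for Sp5 in B16F10 luc2, RET and D4M, and all 3 lay nearer to HCmel12 for 15 of the 29 members that differed at least 2-fold. The promoter window of Sp5 (chr2:70474673-70474972, plus strand, RefSeq, GRCm38.p6) is shown because the gene was at 0 in HCmel12. Capitals mark CTTTGATC, the letters bound by TCF and LEF factors, which was searched with its reverse complement GATCAAAG and is held by 1.09% of 27025 genes and by 3 of 46 Wnt genes with a window. Nkd1, Axin2, Lef1, Tcf7 and Wif1 hold 0 matches in their windows.
Sp5: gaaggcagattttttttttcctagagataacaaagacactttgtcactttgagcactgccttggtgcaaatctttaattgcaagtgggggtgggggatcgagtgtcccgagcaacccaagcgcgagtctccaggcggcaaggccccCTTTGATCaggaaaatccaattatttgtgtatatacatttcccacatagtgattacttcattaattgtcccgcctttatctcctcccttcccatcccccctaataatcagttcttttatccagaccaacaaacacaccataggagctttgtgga

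BMP and TGF-beta genes were mostly higher in WT31, with 33 of 52 members higher and 10 lower (median 0.56), or 33 and 5 with log2(TPM + 1). Beside Bmp7, the ligand Bmp2 was at 12 to 18.9 CPM in WT31 and 0 in HCmel12 (at least 113-fold higher), and Fst, follistatin, a secreted inhibitor, at 12.3 to 26.6 CPM against at most 0.0444 CPM (at least 178-fold higher). The target Id4 was at 21.7 to 42.4 against 2.6 to 4.57 CPM (2.92), and Id2 (184 and 54.7 CPM, 1.78) and Id3 (164 and 51.3 CPM, 1.69) had higher means in WT31 too. Smurf1, a ubiquitin ligase that removes SMADs, was lower (37.6 to 45.4 against 246 to 317 CPM, -2.73), as was the BMP inhibitor Nog (at most 0.0369 against 0.529 to 3.35 CPM, at least 14.8-fold lower).

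The interferon response had the lowest median of the lists, -1.42, with 43 of 69 members lower in WT31 and 9 higher. Without HCmel12 replicate 4, 41 were lower and 9 higher, with a median of -1.09. Ifit2, a cytoplasmic effector, was at 0.152, 0.038, 0.0388, 0.308 and 0.0739 CPM in WT31 and 51.9, 46.2, 44.3, 41 and 43.3 CPM in HCmel12 (-8.67 ± 0.34, adjusted p = 8.9e-18). Cgas, the sensor of cytosolic DNA, was at 0.0759, 0.076, 0.0388, 0.155 and 0 CPM in WT31 and 25.4, 25.8, 21.2, 22.9 and 24.3 CPM in HCmel12 (-8.42 ± 0.40, adjusted p = 4e-16). Replicate 4 was the lowest HCmel12 library for Ifit2 and was within the range of the other HCmel12 libraries for Cgas. Ly6e was at most 0.0759 CPM in WT31 and 16.5 to 21.8 CPM in HCmel12 (at least 177-fold lower), and the RNA sensor Ifih1 at most 0.152 CPM against 3.97 to 9.29 CPM (-6.57). The chemokine Cxcl11 was at 0.114 to 0.309 against 17.9 to 22.6 CPM (-6.73). Irf1, a transcription factor of the response, was lower by less (7.15 to 9.64 against 20.4 to 25.1 CPM, -1.45). Irf8 went the other way, at 4.59 to 11.2 CPM in WT31 and at most 0.122 CPM in HCmel12 (6.74). Receptors of interferons were mostly higher in WT31 (3 of 4). The means of Ifit2 were 50.7 CPM in B16F10 luc2, 50.1 CPM in RET and 32.6 CPM in D4M, and those of Cgas were 8.7, 13 and 22 CPM, so that WT31 had the lowest mean of the 5 lines in both genes. D4M lay nearer to WT31 than to HCmel12 in only 1 of the 34 interferon genes that differed at least 2-fold, RET in 6 and B16F10 luc2 in 19.

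Promoter windows of Isg15, a ubiquitin-like protein (chr4:156200769-156201068, minus strand), and Ifit1 (chr19:34640639-34640938, plus strand), from RefSeq in GRCm38.p6, are shown for the letters bound by factors of the interferon response. Capitals mark 2 copies of GAAA with any 2 bases between them, or of the reverse complement TTTC, searched on both strands with overlaps counted. It is held by 3.99% of 27025 genes and by 26 of 52 interferon genes with a window (16 of 30 lower in WT31, 2 of 9 higher and 7 of 11 not called, with 2 members not tested). Isg15 holds 3 overlapping matches and Ifit1 holds 2, while Ifit2 and Cgas hold 0 in their windows.
Isg15: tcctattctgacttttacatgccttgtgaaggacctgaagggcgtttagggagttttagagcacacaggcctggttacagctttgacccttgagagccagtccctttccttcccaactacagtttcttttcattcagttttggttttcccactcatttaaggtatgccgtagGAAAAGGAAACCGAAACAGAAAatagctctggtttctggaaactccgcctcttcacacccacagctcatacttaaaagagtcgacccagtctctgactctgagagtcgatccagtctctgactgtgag
Ifit1: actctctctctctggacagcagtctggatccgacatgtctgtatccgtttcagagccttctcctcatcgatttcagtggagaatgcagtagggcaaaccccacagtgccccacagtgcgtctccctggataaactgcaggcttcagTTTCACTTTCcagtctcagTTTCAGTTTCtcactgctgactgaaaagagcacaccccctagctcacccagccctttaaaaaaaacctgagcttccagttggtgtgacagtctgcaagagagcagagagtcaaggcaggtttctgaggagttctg
Isg15 was at 0.076 to 0.567 CPM in WT31 and at 1.93, 1.51, 1.54, 7.63 and 2.03 CPM in HCmel12 (-3.25), and Ifit1 at 0 to 0.155 CPM against 3.56, 3.31, 1.34, 8.32 and 4.03 CPM (-5.71), with replicate 4 highest in both.

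Genes of antigen presentation were mostly lower in WT31, with 23 of 39 members lower and 9 higher in WT31 (median -0.65), or 11 higher and 23 lower without HCmel12 replicate 4 (-0.64). Of the class I genes 7 of 10 were lower and of the processing genes 11 of 14. H2-D1, a classical class I heavy chain, was at 18.5 to 27.7 against 71.5 to 134 CPM (-1.96 ± 0.16, adjusted p = 4.5e-11) and H2-K1 at 4.63 to 9.91 against 14.9 to 50.4 CPM (-1.63 ± 0.31, adjusted p = 3.9e-05), with replicate 4 highest. H2-Q4, a non-classical class I gene that shares 53% of its 31-base sequences with other genes, was at 0.0773 to 0.423 against 9.61 to 25 CPM (-6.07). Nlrc5, the transactivator of class I genes, was at 0.038 to 0.115 against 4.74 to 6.87 CPM (-5.81), and Psmb8, a subunit of the immunoproteasome, was at 0 in all WT31 libraries and at 0.757 to 2.06 CPM in HCmel12 (at least 9.62-fold lower). B2m, the light chain, differed by less (368 to 422 against 540 to 762 CPM, -0.66). Cd274, the checkpoint ligand PD-L1, was at 0.228 to 1.15 against 19.4 to 55.5 CPM (-5.75), whereas Lgals9, galectin 9, was higher in WT31 (41.2 to 107 against 5.19 to 8.88 CPM, 3.10).

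**Figure D3:**
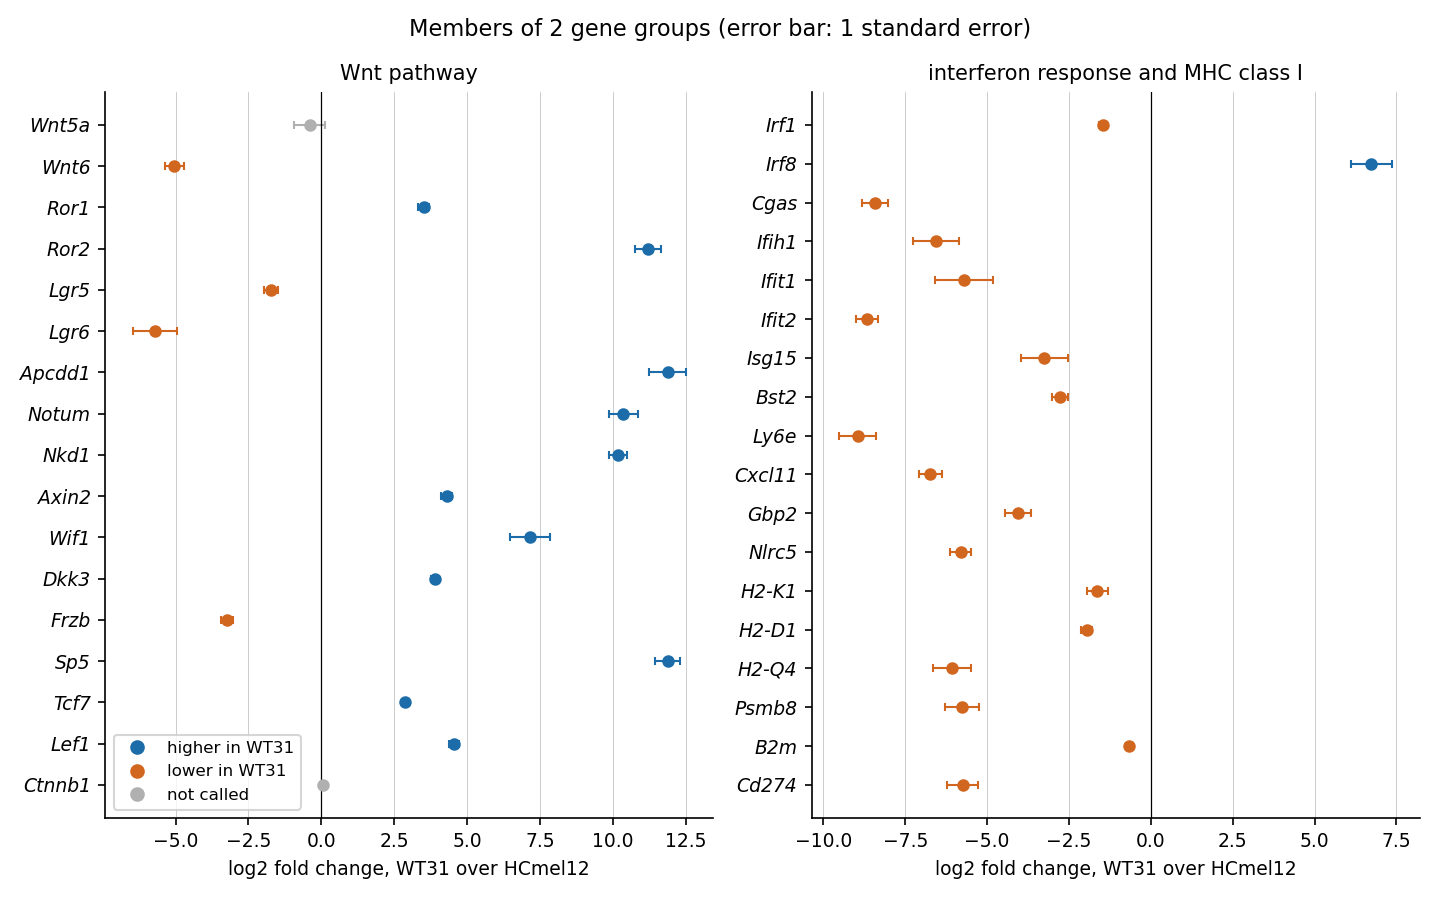
Log2 fold change of WT31 over HCmel12 with 1 standard error for members of the Wnt pathway (left) and of the interferon response with MHC class I (right), blue where higher in WT31, orange where lower and grey where not called. The Wnt targets Sp5, Notum and Nkd1 lie above 10 while Ctnnb1 lies at 0.06, and Irf8 at 6.74 is the only interferon gene drawn to the right of 0. Of the 69 interferon genes tested 9 were higher in WT31, and not all of them are drawn.

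Cytokines and their receptors were split (14 of 38 higher and 15 lower). Il33, an alarmin of barrier tissues, was at 134 to 281 CPM in WT31 and 2.61 to 6 CPM in HCmel12 (5.65), and the chemokine Cxcl15 at 35.5 to 84.5 against at most 0.0814 CPM (at least 437-fold higher). Cxcr4, a chemokine receptor linked to homing, had means of 5.99 and 0.0161 CPM (at least 49.6-fold higher). The receptors of the IL-6 family Osmr (at most 0.114 against 10.8 to 25.1 CPM, -8.22) and Lifr (means of 0.521 and 12.4 CPM, -4.54) were lower in WT31.

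Caveolae are small pits of the plasma membrane built from caveolins and cavins. Beside Cav1, Cav2 was at 26.2 to 35.5 CPM in WT31 and 353 to 443 CPM in HCmel12 (-3.78 ± 0.09, adjusted p = 9.8e-22) and Cavin1 at 8.39 to 11.8 against 48.5 to 56.3 CPM (-2.48). Cavin2 was 281 to 341 against 3.46 to 6.42 CPM (5.98), opposite to the others. Of the 11 members tested, 3 were higher and 4 lower. Cav1 had means of 1.53 CPM in B16F10 luc2, 4.06 CPM in RET and 777 CPM in D4M, and it was lower in all 3 lines of the HIM-melanoma group than in the other 2 lines.

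Of 20 integrins tested, 10 were higher and 9 lower in WT31 (95% called, against 70.4% of all genes tested). Without HCmel12 replicate 4, 9 were higher and 8 lower. Itga4, the alpha chain of the VCAM-1 receptor, was at 725, 556, 554, 554 and 422 CPM in WT31 and 104, 121, 147, 82.7 and 90.3 CPM in HCmel12 (2.38 ± 0.14, adjusted p = 2.2e-14). Itga2, a collagen receptor chain, was at 5.5 to 11 against 1.05 to 2.57 CPM (2.04 ± 0.31, adjusted p = 1.6e-06), and Itga8 at 74.5 to 107 against 1.74 to 7.36 CPM (4.26). Itgb5, a vitronectin receptor chain (1.17 to 4.02 against 96.5 to 113 CPM, -5.74), and Itga7, a laminin receptor chain (0.192 to 0.313 against 12.2 to 19.1 CPM, -5.86), were lower. Itgb1, the common beta chain, had means of 854 and 732 CPM (0.22).

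Matrix genes differed in both directions. Of 13 laminin and basement membrane genes 8 were higher and 5 lower in WT31, or 8 and 2 with log2(TPM + 1). Lama1 was at 24.7 to 32.7 CPM in WT31 and 0 in HCmel12 (at least 223-fold higher) and Lama4 at 200 to 264 against 43.6 to 71.3 CPM (2.10), whereas Lama3 was at most 0.0388 against 7.25 to 17.5 CPM (at least 93.8-fold lower) and Lama5 had means of 25.5 and 61 CPM (-1.27). Of 33 collagens 13 were higher and 9 lower, shares near those of all genes tested. Against the other 4 WT31 libraries the median of the list lay at 0.62 log2 units in WT31 replicate 1 and at -0.74 in replicate 2. Without the first 12 collagens were higher and 9 lower, and without the second 15 and 10. Higher in WT31 were Col5a3 (means of 90.7 and 1.09 CPM, 6.48) and Col11a1 (41.6 and 0.702 CPM, 5.84), and the basement membrane chain Col4a5 was lower (0.0225 and 16.9 CPM, at least 148-fold). Sparc, a matricellular protein, was at 3072 to 3739 against 969 to 1320 CPM (1.54), and Fn1, fibronectin, at 157 to 316 against 1074 to 1805 CPM (-2.55). Thbs2, thrombospondin 2, was at 0 in WT31 and 11.8 to 24.6 CPM in HCmel12 (at least 169-fold lower). Of 48 matrix proteases and their inhibitors 27 were higher and 11 lower (median 0.50), with the membrane-bound Mmp15 at means of 222 and 14.5 CPM (3.93), the inhibitor Timp3 at 0.038 to 0.455 against 42.5 to 56.2 CPM (-7.98) and the urokinase receptor Plaur at means of 1.12 and 14.9 CPM (-3.76).

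Of 34 genes of cadherins and their junctions 12 were higher and 13 lower in WT31, shares near those of all genes tested, and the order of the counts turned with log2(TPM + 1). Cdh13 was at most 0.0759 CPM in WT31 and 80.9 to 137 CPM in HCmel12 (at least 873-fold lower) and Cdh1, E-cadherin, at 0.266 to 0.665 against 3.81 to 15.2 CPM (-3.75). Cdh11, of mesenchymal cells, was at 6.91 to 16.5 CPM in WT31 and 0 in HCmel12 (at least 102-fold higher), and Cdh3, P-cadherin, at 13.3 to 27 against at most 0.0814 CPM (at least 141-fold higher). Of 10 transcription factors of epithelial to mesenchymal transition 9 were higher in WT31. Prrx1, a mesenchymal homeobox factor, was at 141 to 160 against 0.0405 to 0.239 CPM (10.22), and Twist2 at 5.17 to 6.03 CPM against 0 (at least 47.2-fold higher). The genes of the contractile cytoskeleton in the same list were split, with 3 of 10 higher and 5 lower, among them the caldesmon Cald1 (means of 17.4 and 154 CPM, -3.18) and the myosin light chain Myl9 (1.1 and 21.2 CPM, -4.27).

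Of 50 axon guidance genes 20 were higher and 20 lower in WT31, an even split like that of all genes tested. The semaphorin Sema6d (means of 709 and 15.7 CPM, 5.56), the netrin receptor Unc5c (69.1 to 78.9 against 0.283 to 1.22 CPM, 7.10) and the Slit receptor Robo2 (23.5 and 0.516 CPM, 5.49) were higher. Sema4g (0.106 and 17.1 CPM, -7.48), Sema3d (0.0796 and 11.7 CPM, -7.16) and Sema3g (0.417 and 51.5 CPM, -6.99) were lower. Among Eph receptors, Epha5 was at 20.8 to 30.6 CPM in WT31 and at most 0.0896 CPM in HCmel12 (at least 210-fold higher), and Epha3 at most 0.148 against 26.7 to 48.7 CPM (-8.71). Of 47 angiogenic genes 16 were higher and 17 lower in WT31 (median 0.11). Of 5 VEGF ligands 2 were higher and 2 lower, or 2 and 1 without HCmel12 replicate 4, and of 5 receptors of this list 1 was higher and 3 lower. Among the receptors Kdr was at most 0.266 against 25.3 to 38.9 CPM (-8.77) and Flt4 at most 0.228 against 16.3 to 19.9 CPM (-7.58). Vegfb, a ligand, had means of 120 and 142 CPM (-0.24). Of 34 neurotransmitter receptor genes 12 were higher and 13 lower in WT31, also near the shares of all genes, or 10 and 7 with log2(TPM + 1). Glrb, the beta subunit of the glycine receptor, was at 305 to 406 against 0.0399 to 0.361 CPM (11.31) and Grik3, a kainate receptor, at 225 to 280 against 0.0405 to 0.361 CPM (10.68), while Grin2c was at most 0.0385 against 5.1 to 17 CPM (at least 79.8-fold lower).

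Genes of glycolysis and of amino acid synthesis were mostly lower in WT31. Of 45 genes of glycolysis and the hypoxia response 30 were lower and 11 higher (median -0.40), or 30 and 12 without HCmel12 replicate 4 (-0.36), with 13 of 17 glycolytic genes and 13 of 24 hypoxia genes lower (8 of the latter higher). Ldha, lactate dehydrogenase A, was at 560 to 626 against 1099 to 1326 CPM (-1.02 ± 0.06, adjusted p = 1.2e-13), Pfkp, a phosphofructokinase, at 16 to 22.5 against 115 to 164 CPM (-2.86) and the glucose transporter Slc2a3 at 0 to 0.465 against 7.27 to 23.7 CPM (-6.16), with replicate 4 highest. The hypoxia-inducible factor Epas1 (means of 61.1 and 14.5 CPM, 2.05) and the peptide adrenomedullin Adm (34 and 1.73 CPM, 4.59) were higher. Of 50 genes of the ATF4 and amino acid response 30 were lower and 7 higher (median -0.45), or 30 and 11 without replicate 4 (median -0.41), with 12 of 16 synthesis genes lower and the 11 transporters split into 5 higher and 4 lower. Eif4ebp1, a brake on translation (27.7 and 141 CPM, -2.31), and Cbs, of cysteine synthesis (0.0946 and 5.59 CPM, -5.91), were lower. The amino acid carrier subunits Slc3a2 (1010 to 1479 against 168 to 285 CPM, 2.65) and Slc7a5 (730 and 267 CPM, 1.42) were higher, as was Slc7a11. Trib3, an ATF4 target, was at 0.621 to 0.987 CPM in WT31 and at 2.89, 2.03, 2.92, 65.4 and 6.59 CPM in HCmel12 (-2.95), or -2.09 without replicate 4.

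Lipid and glutathione genes held single large differences. Apoe, apolipoprotein E, was at 15.8 to 18.8 against 419 to 736 CPM (-5.00 ± 0.15, adjusted p = 2.6e-20) and Lpl, lipoprotein lipase, at 0.116 to 0.245 against 12.6 to 19.7 CPM (-6.26), while of 22 cholesterol synthesis genes 9 were higher and 5 lower. In the whole cholesterol and fatty acid list 14 members were higher and 15 lower, and more were higher with either TPM scale. Among glutathione transferases Gsta4 was at 118 to 168 against 0.446 to 0.808 CPM (7.82) and Gstm1 had means of 381 and 73.4 CPM (2.42). Gstp2, which shares 60.3% of its 31-base sequences with other genes, was at 0.991 to 4.31 against 474 to 560 CPM (-7.92), and its near copy Gstp1 had means of 1443 and 2584 CPM (-0.85).

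Genes of growth and of respiration had the lowest shares of called members among the lists. Of 56 genes of S phase and mitosis 22 were called (39.3%), 7 higher and 15 lower, and without WT31 replicate 5, in which they were low, 16 were higher and 8 lower. Without HCmel12 replicate 4 these were 5 and 18, and with log2(TPM + 1) 9 and 5. Mki67, a marker of cycling cells, was at 422, 353, 305, 340 and 155 CPM in WT31 and 284 to 396 CPM in HCmel12 (-0.04, adjusted p = 0.83). Mcm7, a replicative helicase subunit, was lower in every WT31 library (163 to 219 against 666 to 927 CPM, -1.93). Of 90 genes of oxidative phosphorylation 47 were called (52.2%), 14 higher and 33 lower with counts but 30 higher and 21 lower with log2(TPM + 1), so that no direction is given. Ndufa5, a complex I subunit, had means of 28.8 and 78.1 CPM (-1.44).

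**Figure D4:**
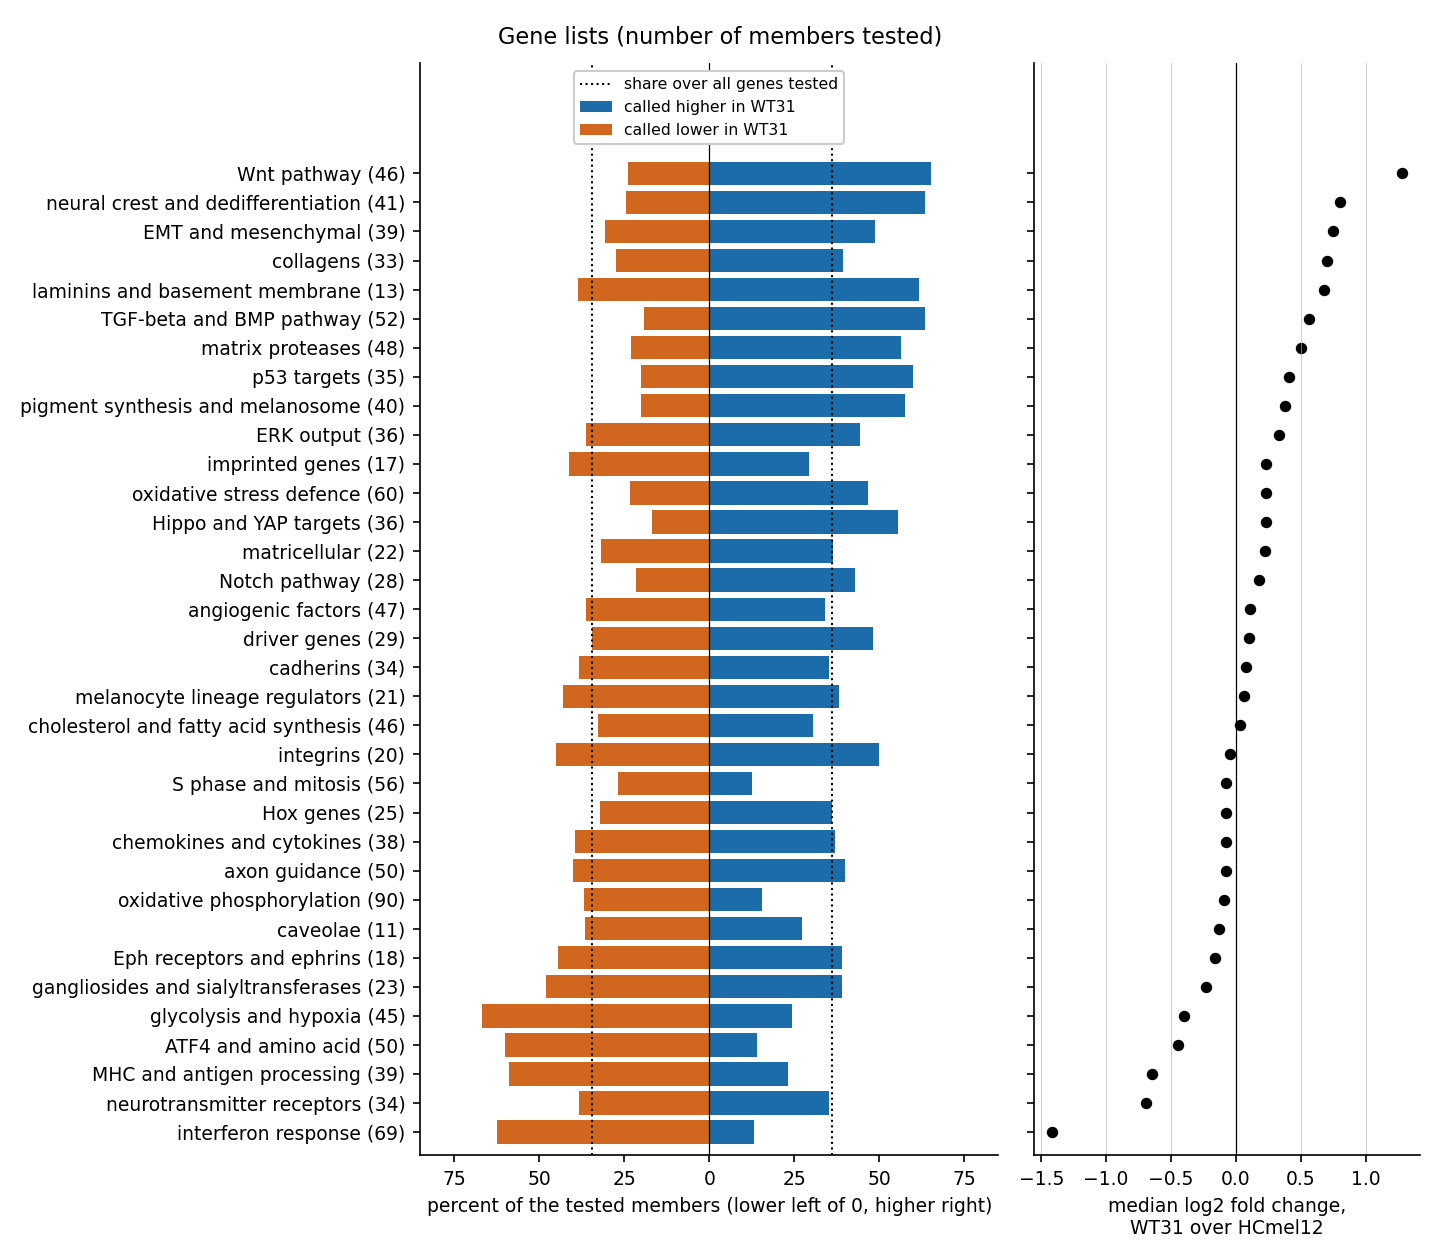
Percent of the tested members of each gene list called higher (blue) and lower (orange) in WT31, with the shares of all genes tested as dotted lines (36.1% and 34.3%), and the median log2 fold change of each list on the right. The Wnt pathway (1.28) and the interferon response (-1.42) are at the ends of the order, and S phase and mitosis and oxidative phosphorylation have the lowest shares of called members.

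Hox genes, whose expression keeps a record of a cell's origin, and imprinted genes differed in single members. Hoxb9 was at 141 to 217 against 2.45 to 13.9 CPM (4.99), while Hoxd13 was at most 0.0769 CPM in WT31 and 36.7 to 45.4 CPM in HCmel12 (at least 355-fold lower). Of 25 Hox genes tested 9 were higher and 8 lower in WT31, with 6 of 10 Hoxa genes higher and 1 lower, and 4 of 5 Hoxd genes lower and 1 not called. With at least 10 counts in every library of a line, 5 Hox genes were higher and 5 lower. Plagl1, an imprinted zinc finger gene, was at 0.607, 0.912, 0.854, 5.42 and 0.739 CPM in WT31 and 528 to 723 CPM in HCmel12 (-9.11 ± 0.30, adjusted p = 3.6e-19). Grb10 was at 284 to 329 against 0 to 0.243 CPM (11.36), and Mest, imprinted too, at 306 to 485 against 36.7 to 112 CPM (2.31). Of 17 imprinted genes 5 were higher and 7 lower, and 7 and 5 with log2(TPM + 1). The lines also differed in their sex chromosomes. Xist, the RNA of the inactive X chromosome, was at most 0.116 CPM in WT31 and 174 to 252 CPM in HCmel12, and the Y genes Ddx3y (63.8 to 71.8 against at most 0.0808 CPM) and Eif2s3y (37.3 to 40.5 against at most 0.0401 CPM) were on in WT31 alone of the 2 lines. Eif2s3x and Kdm6a, which escape X inactivation, were lower in WT31 (-1.03 and -0.73).

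Differences were not spread evenly along the chromosomes. In 234 windows of 10 megabases with at least 20 tested genes, the medians ran from -1.48 to 0.83 with quartiles at -0.09 and 0.16, and 11 windows had a median of -0.5 or lower and 10 of 0.5 or higher. The lowest stretch lay on chromosome 6 from 10 to 40 megabases (GRCm38), where 107 of 125 genes (85.6%) were lower in WT31, with a median of -1.32 (-0.89 with log2(TPM + 1)). Of the genes described above it holds Met, Cav1, Cav2, Braf, Ndufa5 and Cald1, which were lower in WT31, and Mest, which was higher. Against the median of the other 3 lines the stretch lay at -0.68 in WT31 and at 0.59 in HCmel12, while from 40 to 60 megabases it was -0.73 in WT31 and lower still in HCmel12, so that WT31 lay below the other lines in both regions and HCmel12 above them in the first alone. The median of WT31 against HCmel12 in that neighbouring region was 0.33. On chromosome 5 from 130 megabases to the end, with Mcm7 and Smurf1, 175 of 250 genes (70.0%) were lower (median -1.03, or -0.65 with log2(TPM + 1)), with WT31 at 0.02 and HCmel12 at 1.06 against the other lines. On chromosome 1 from 120 to 140 megabases 83 of 112 genes (74.1%) were lower (median -1.08, or -0.64 with log2(TPM + 1)), and on chromosome 10 from 20 to 50 megabases 79 of 133 (59.4%) were higher (0.66). Without HCmel12 replicate 4 these medians were -1.30, -1.05, -1.08 and 0.64. A single window of chromosome X, from 140 to 150 megabases, had a median of -1.20, with 19 of 31 genes lower, Col4a5 among them (-1.30 without HCmel12 replicate 4). A window of chromosome 15, from 60 to 70 megabases, had a median of -0.78, with 13 of 22 genes lower (-0.72 without HCmel12 replicate 4). Over whole chromosomes the median was lowest for chromosome 1 (-0.33) and highest, apart from Y, for chromosome 2 (0.24). DNA was not measured here, and the stretches were chosen after their values were seen.

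**Figure D5:**
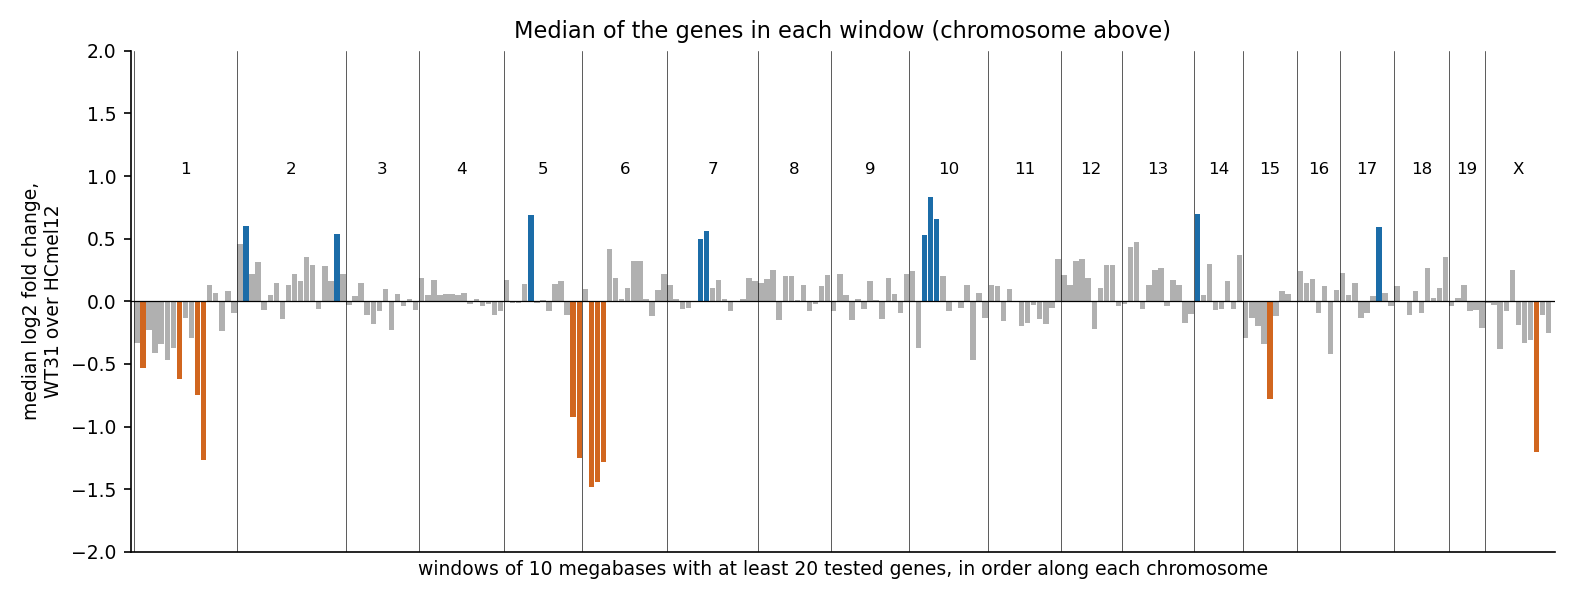
Median log2 fold change of WT31 over HCmel12 of the genes in each of 234 windows of 10 megabases, in order along chromosomes 1 to 19 and X, with windows at 0.5 or more in blue and at -0.5 or less in orange. The low runs are 3 neighbouring windows of chromosome 6, the last windows of chromosome 5 and a stretch of chromosome 1. Single low windows lie on chromosome X at -1.20 and on chromosome 15 at -0.78, and 3 windows of chromosome 10 stand above 0.5. Further windows on these and other chromosomes also pass these limits.

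B16F10 luc2, RET and D4M were placed by their mean log2 CPM. Of the 2287 genes at least 2-fold higher in WT31, all 3 other lines lay nearer to HCmel12 for 762 (33.3%) and nearer to WT31 for 286 (12.5%). Of the 2289 genes at least 2-fold lower in WT31, all 3 lay nearer to HCmel12 for 488 (21.3%) and nearer to WT31 for 524 (22.9%). Of the 180 genes detected only in WT31, 44 were at the floor in all 3 other lines and 12 were detected in all 3, and of the 152 detected only in HCmel12 these were 24 and 22. The genes measured by qPCR were picked from these same libraries, so that their direction is not independent evidence. Of those picked as higher in HIM-melanoma 5 of 5 were higher in WT31, Tyr, Glrb and Unc5c described above, Kazn (at least 336-fold higher) and the sialyltransferase St6galnac3 (at least 86.7-fold), and of those picked as lower, Thbs2, Tfap2b and Ly6e among them, 5 of 5 were lower. Msx1 was at most 0.111 CPM in both lines (0.80, adjusted p = 0.3), against a mean of 22.7 CPM in D4M.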

How the data were processed

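Untreated cultures of 5 murine melanoma lines were sequenced, 5 biological replicates each per the labels, and WT31 was compared with HCmel12. The authors trimmed reads with Trim Galore (0.6.4) and quantified transcripts with kallisto (0.46.1 in the methods, 0.4.6 in the submitters' processing notes) on GRCm38.p6, and the annotation release is not given in the sources used here. The deposited files hold estimated counts per gene, not normalized, and TPM values of the authors, which sum to 1000000 per library. The TPM file of 1 D4M library was not used. Symbols and positions matched 55144 of 55385 genes.

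Counts went into voom and limma (3.58.1, R 4.3.3) with TMM factors from edgeR (4.0.16), genes kept by filterByExpr, a mean per line over all 25 libraries and Benjamini-Hochberg adjustment at 0.05. All log2 fold changes, standard errors (±) and adjusted p-values come from this fit unless another scale is named, and the other values are CPM. DESeq2 (1.42.0), edgeR's quasi-likelihood test, limma on log2(TPM + 1) and log2(TPM + 0.1), other scalings and filters, the replicate block and each library left out were alternatives, and the chromosome stretches and the lists without HCmel12 replicate 4 were added after seeing the data. Folds written "at least" use a floor of 3 counts per library, which covers counting error only. On simulated counts of 15087 genes for this comparison, 94 of 100 genes changed 2-fold and 100 of 100 changed 4-fold were recovered, with 5 false calls. The simulation gave every gene the same dispersion and took the changed genes from those above a minimum mean count in HCmel12. All other genes were left equal between WT31 and HCmel12, so these rates are not those of the real data. Of 489 genes considered for naming, 22 shared over 50% of their 31-base sequences with other genes.

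The members and lists were chosen with earlier results of these data known. Named were the 12 highest and 12 lowest protein-coding genes with at least 10 CPM in every library of the higher line and no overlap, the driver, sex chromosome and qPCR genes with Itga2, Itga4 and Msx1, up to 5 called genes per list and direction with a mean of at least 1 CPM in the higher line (all members where at most 5 were called in a direction or were not called), the 3 most abundant of each list and the 10 most abundant of each line by TPM. Of these, the genes that carry the description are printed, and some named by the rule are not reported here. Whether strand was used in counting is not given in the sources used here, and overlapping genes may share counts.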

Additional observations from a re-analysis of the deposited data

Results flagged for a closer look

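In 23 of the genes described, 1 of the 5 libraries of a line lay outside the others by Dixon's 95% criterion, which chance meets in about 1 in 20 groups. Over all named genes 62 of 761 groups of 5 (8.15%) met it, 36 of them through HCmel12 replicate 4, 8 through another HCmel12 library and 18 through a WT31 library.

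HCmel12 replicate 4 was the highest of its line for Cav1 (479 CPM), Chchd10 (339 CPM), Tyr (30.1 CPM), Dct (5048 CPM), Ddr2 (143 CPM), Sema6d (28.9 CPM), Psmb8 (2.06 CPM), Slc2a3 (23.7 CPM) and Isg15 (7.63 CPM). It was the lowest of its line for Tmsb4x (216 CPM), Trp53 (184 CPM), Myl9 (12.7 CPM), Sparc (969 CPM) and Mest (36.7 CPM). The melanin enzymes, an immunoproteasome subunit and an interferon gene are thus among those in which this library was highest, and cytoskeletal and matrix genes among those in which it was lowest.

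Other HCmel12 libraries stood apart for Cdkn1a (replicate 1 lowest, 17.6 CPM), Frzb (replicate 1 highest, 11.9 CPM) and Mki67 (replicate 3 highest, 396 CPM). In WT31 replicate 1 was the highest for Sox2 (15.6 CPM) and Bmp2 (18.9 CPM), replicate 2 for Cdkn2a (3.23 CPM) and replicate 4 for Eif2s3x (301 CPM) and Plagl1 (5.42 CPM). WT31 replicate 4 was the lowest for Frzb (0.692 CPM) and WT31 replicate 5 the lowest for Mcm7 (163 CPM).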

How the results depend on the processing

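Between 10515 and 10841 genes were called when each library was left out in turn, 5389 to 5569 higher and 5116 to 5272 lower in WT31, and 10742 were called with library sizes alone, 10700 with edgeR's quasi-likelihood test, 10694 with DESeq2 and 10190 with log2(TPM + 1). Limited to 2-fold differences the count was 4576, of which 2287 were higher and 2289 lower. Genes detected in 1 line numbered 106 (WT31) and 78 (HCmel12) with a floor of 1 count, 299 and 326 with a floor of 10 counts, and 69 and 36 with at least 10 CPM in the other line. With library sizes alone the chromosome medians were -0.28 (chromosome 1), 0.29 (chromosome 2) and -0.06 (chromosome X, -0.11 with TMM). Members lower in WT31 numbered 5 with library sizes alone, 3 with log2(TPM + 1), 2 with log2(TPM + 0.1) and 5 to 9 with a library left out for the pigment list (5 without WT31 replicate 2 or HCmel12 replicate 4), 2 and 3 with the TPM scales for laminins, 5 and 5 for BMP and TGF-beta, and 3 and 3 for Notch. In S phase and mitosis 8 were lower with library sizes alone and 5 with either TPM scale, and with a library left out 5 to 16 were higher and 8 to 20 lower, the first bound of the lower and the last of the higher without WT31 replicate 5. In oxidative phosphorylation 8 were higher with DESeq2 size factors, 30 were higher and 21 lower with either TPM scale, and 8 to 14 were higher with a library left out, 8 or 9 of them without WT31 replicate 3 or 5 or HCmel12 replicate 1, 2 or 3. Of cholesterol and fatty acid genes 23 were higher with either TPM scale, of ATF4 genes 7 to 11 were higher with a library left out (11 without HCmel12 replicate 4), of neurotransmitter receptors 7 were lower with log2(TPM + 1), of imprinted genes 8 were higher with no filter, and of Hox genes 5 were higher and 5 lower with at least 10 counts in every library of a line. Ifitm2 (0.17 with either TPM scale) and Gins2 (-0.28 and -0.29 with log2(TPM + 1) and log2(TPM + 0.1), 0.26 with counts) changed sign. The causes were not tested.

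Of 486 named genes 417 kept their sign and their side of the threshold in all 20 alternatives. Splits that are close to even turned their order with the scale or filter for the lineage regulators, cadherins, chemokines, gangliosides, Hox genes and imprinted genes. Replicates of the lines shared a number only, with correlations of their deviations between -0.092 and 0.02 and 1 of 5 WT31 libraries correlating best with its own number, and with the replicate block 9298 genes were called (9574 in the same 10 libraries without it). Depth was similar in all 10 libraries, and genes below the floor of 3 counts are not shown to be absent.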

Other observations

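Of 21 targets of YAP, the effector of the Hippo pathway that acts with TEAD factors, 11 were higher in WT31 and 6 lower. Of 15 components of the pathway 9 were higher and 0 lower in limma, or 8 and 1 without HCmel12 replicate 4. Yap1 itself was at 171 to 188 CPM in WT31 and 149 to 180 CPM in HCmel12 (log2 fold change 0.06, adjusted p = 0.27 in limma). Igfbp3, a binding protein of insulin-like growth factors, was at 81.6 to 115 CPM in WT31 and at most 0.0814 CPM in HCmel12 (at least 765-fold higher), and Arhgef17, a guanine nucleotide exchange factor, was at 1.06 to 1.31 against 97.5 to 146 CPM (-6.77). Of 28 genes of the Notch pathway 12 were higher and 6 lower, with 3 lower on the log2(TPM + 1) scale. The receptor Notch1 was at 45.5 to 91.1 against 15 to 21.3 CPM (1.89) and its ligand Jag1 at 16.6 to 34.6 against 1.37 to 2.23 CPM (3.64), whereas the ligand Jag2 was at 0.332 to 0.684 against 2.95 to 8.12 CPM (-3.06). Of 11 enzymes of ganglioside synthesis 2 were higher and 6 lower, and of 12 sialyltransferases 7 were higher and 5 lower. B4galnt1, which makes GM2 and GD2, was at 0.354 to 0.981 against 12.5 to 16 CPM (-4.50), and the sialyltransferase St8sia6 at 2.16 to 4.1 CPM against 0 in all HCmel12 libraries (at least 26.1-fold higher).

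Some genes were named here after their values were seen. Armh4 was at 774 to 1498 CPM in WT31 and at 1.4, 1.75, 0.811, 8.6 and 1.55 CPM in HCmel12 (9.15). Fgfr1, a receptor of fibroblast growth factors, was at 38.3 to 55.9 against 5.91 to 8.22 CPM (2.79), and Nrp2, a coreceptor of semaphorins and vascular growth factors, at 4.03 to 15.5 against 42.8 to 88.3 CPM (-3.47). Among the most abundant genes, the predicted transcript Gm48274 was at 11.5 to 15.9 CPM in WT31 and 580 to 872 CPM in HCmel12 (-5.71). Of the genes that set HCmel12 replicate 4 apart, Nupr1, a stress-induced nuclear protein, was at 20.5 CPM there and at 0.319 to 0.732 CPM in the other 4 HCmel12 libraries. Chac1, an ATF4 target that cleaves glutathione, was at 14.8 against 1.46 to 1.85 CPM, and the transporter Slc1a4 at 50 against 7.97 to 11 CPM. Irf7, an interferon regulatory factor, was at 5.94 against 0.568 to 0.923 CPM, and its log2 fold change of WT31 over HCmel12 was -1.67 with replicate 4 and -1.09 without it (adjusted p = 0.094).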
